A study of Mus musculus with 12 samples.

Results

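A set of 10 genes of cholesterol efflux and of the response to the liver X receptors (LXRs) was followed in oligodendrocyte-lineage cells sorted from mouse spinal cord: Abca1, Abcg1, Apoe, Nr1h2, Nr1h3, Mylip, Soat1, Lpcat3, Npc1 and Npc2. They were taken by name, with earlier results of these data known, and all 10 were found among the 35675 genes of the annotation. The RalAB cKO mice carried CnpCre with both RalAflox/flox and RalBflox/flox, the RalA cKO mice carried CnpCre with RalAflox/flox, and the control mice carried CnpCre with neither, with 4 mice and 4 libraries in each group. All 3 groups thus had Cre under the Cnp promoter, which is active in myelinating glia, and all carried the Rosa26-StopFlox-TdTomato reporter that Cre switches on. Red cells of large size were sorted by flow cytometry at postnatal day 10, per the labels, and the polyadenylated RNA of each mouse was sequenced. RalA and RalB are small GTPases that act on vesicle tethering at the plasma membrane.

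Cells cannot break down the sterol ring of cholesterol, so they dispose of excess by export, by storage as esters or by lowering uptake and synthesis. LXRs are nuclear receptors that pair with retinoid X receptors, bind oxidised sterols and turn on genes of this disposal route when sterol accumulates. In myelin-rich tissue the route is known above all from phagocytes, which take up myelin cholesterol and pass it on to lipoproteins built on apolipoprotein E, while oligodendrocytes make most of the cholesterol of the growing myelin sheath.

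The libraries held 10.93 to 15.44 M estimated counts each, and between 12155 and 13165 genes of a library reached 1 CPM, that is 1 count in each 1 M counts. Levels are given in CPM scaled between libraries by TMM. Differences are log2 fold changes ± standard error (n = 4 mice per group) from edgeR's quasi-likelihood test, with p-values adjusted by the Benjamini-Hochberg method over 13456 tested genes, and a gene was called at an adjusted p under 0.05. The oligodendrocyte marker Sox10 stood at 1458 to 1922 CPM in RalAB cKO, 1352 to 1718 CPM in RalA cKO, against 1261 to 1724 CPM in control mice. Summed oligodendrocyte and myelin genes took 11.5% to 12.6% of counts in RalAB cKO, 12% to 12.9% in RalA cKO and 11.6% to 13.4% in control mice. Rala, deleted by the labels in both mutants, was 42.9, 32.2, 39.8 and 36.1 CPM in RalAB cKO, 33.1, 42.4, 42.7 and 41.8 CPM in RalA cKO, against 35.5, 59.3, 47 and 56.3 CPM in control mice, and was not called in RalAB cKO (-0.39 ± 0.15, adjusted p = 0.0832) or in RalA cKO (-0.31 ± 0.15, adjusted p = 0.236). Ralb was 14 to 17.2 CPM in RalAB cKO and 13.4 to 17.5 CPM in RalA cKO, against 15.1 to 23.3 CPM in control mice. It was not called against control in RalAB cKO (-0.28 ± 0.15, adjusted p = 0.216) or in RalA cKO (-0.32 ± 0.15, adjusted p = 0.229). Between the mutants the Ralb difference was 0.03 ± 0.15 (adjusted p = 0.936). Per transcript length, Rala was 18.5 to 28.3 TPM (transcripts in each 1 M transcripts) in RalAB cKO and 18.2 to 25.4 TPM in RalA cKO, against 32.7 to 41.4 TPM in control mice, and neither mutant overlapped control. Ralb was 10.4 to 12 TPM in RalAB cKO and 8.45 to 11.8 TPM in RalA cKO, against 12.1 to 19 TPM in control mice. By the chi-square per degree of freedom between the counts of paired libraries, RalAB cKO mouse 1 differed from the others of its group by 19.7 to 31.8, against 9.09 to 15 among those others, and control mouse 1 by 27.4 to 39.5, against 9.63 to 19.7. On the second principal component of the tested genes, control mouse 3 lay furthest from its group, at -48.1 against -21.7 to 0.1. The sorted cells also held RNA of other cell types, and in bulk RNA a change in the number of such cells and a change of RNA per cell cannot be told apart.

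The promoters of the 3 genes that differed most between the groups are shown because Abca1, Apoe and Mylip are textbook LXR targets. Each window runs from 250 bases before to 50 bases after the RefSeq gene start (GRCm38.p6), 5′ to 3′ on the gene's own strand. Abca1 lies at chr4:53159846-53160145 on the minus strand, Apoe at chr7:19699139-19699438 on the minus strand and Mylip at chr13:45389492-45389791 on the plus strand. Capitals mark TATAAA and, in Abca1, the nearest match to the LXR binding motif.
Abca1: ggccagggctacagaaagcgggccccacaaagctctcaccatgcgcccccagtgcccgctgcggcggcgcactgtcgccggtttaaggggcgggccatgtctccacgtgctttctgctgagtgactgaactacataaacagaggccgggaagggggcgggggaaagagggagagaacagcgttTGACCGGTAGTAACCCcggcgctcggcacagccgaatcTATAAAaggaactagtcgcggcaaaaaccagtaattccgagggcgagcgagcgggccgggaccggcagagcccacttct
Apoe: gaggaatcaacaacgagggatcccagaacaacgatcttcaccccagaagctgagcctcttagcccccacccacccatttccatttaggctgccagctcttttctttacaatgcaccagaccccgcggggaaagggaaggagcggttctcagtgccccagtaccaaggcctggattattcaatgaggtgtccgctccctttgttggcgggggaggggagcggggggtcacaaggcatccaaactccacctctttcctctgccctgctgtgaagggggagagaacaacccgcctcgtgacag
Mylip: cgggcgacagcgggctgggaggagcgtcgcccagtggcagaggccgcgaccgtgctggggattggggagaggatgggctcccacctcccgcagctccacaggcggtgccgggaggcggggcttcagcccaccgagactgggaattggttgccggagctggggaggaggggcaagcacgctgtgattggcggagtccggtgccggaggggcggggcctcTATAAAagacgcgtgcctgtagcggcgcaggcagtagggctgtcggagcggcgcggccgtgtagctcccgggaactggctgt
The LXR binding motif, a direct repeat (DR4), was searched as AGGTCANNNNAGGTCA on both strands in 11 windows, which belonged to 8 of the 10 genes. Members outside these 8 were not searched. No window held it with 0, 1 or 2 mismatches, against 0.0152%, 0.25% and 3.02% of all 32851 windows. At 3 mismatches, a tolerance chosen after the stricter ones gave none, it stood in 1 window, Abca1 at 67 to 52 bases before the start, written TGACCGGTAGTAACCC on the gene's strand, against 21.9% of all windows. TATAAA was in 3 of the 11 windows and in 13.6% of all. It lay 29 bases before the start in Abca1 and 32 bases before it in Mylip. In a second Apoe window, not shown, whose lowest coordinate is 19698572, TATAAA lay 96 bases before the start. The GC box GGGCGG was in 5 of the 11 windows and in 35.7% of all. The Apoe window is counted from the most upstream start, that of transcript Apoe-206, and does not reach the start of the more abundant Apoe-201 at position 19699052.

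In RalAB cKO cells the efflux genes Abca1 and Apoe, the degradation factor Mylip and the receptor Nr1h2 were higher than in control cells, and none of the 9 genes tested was called lower. With library totals alone as the scaling, Lpcat3 was called lower and Mylip was not called. Abca1 rose 3.67-fold, Apoe 2.51-fold, Mylip 1.74-fold and Nr1h2 1.36-fold. Of the 9 genes abundant enough to test, 4 were called higher and 0 lower, against 9.39% called higher and 9.02% called lower among all genes tested (18.4% in either direction). The median over the 9 genes was a log2 fold change of 0.43, beside -0.01 over all genes. The CPM ranges of the 4 RalAB cKO and the 4 control mice did not overlap for 4 of the 9 genes (Abca1, Apoe, Mylip and Soat1), against 19.2% of all genes.

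**Figure D1:**
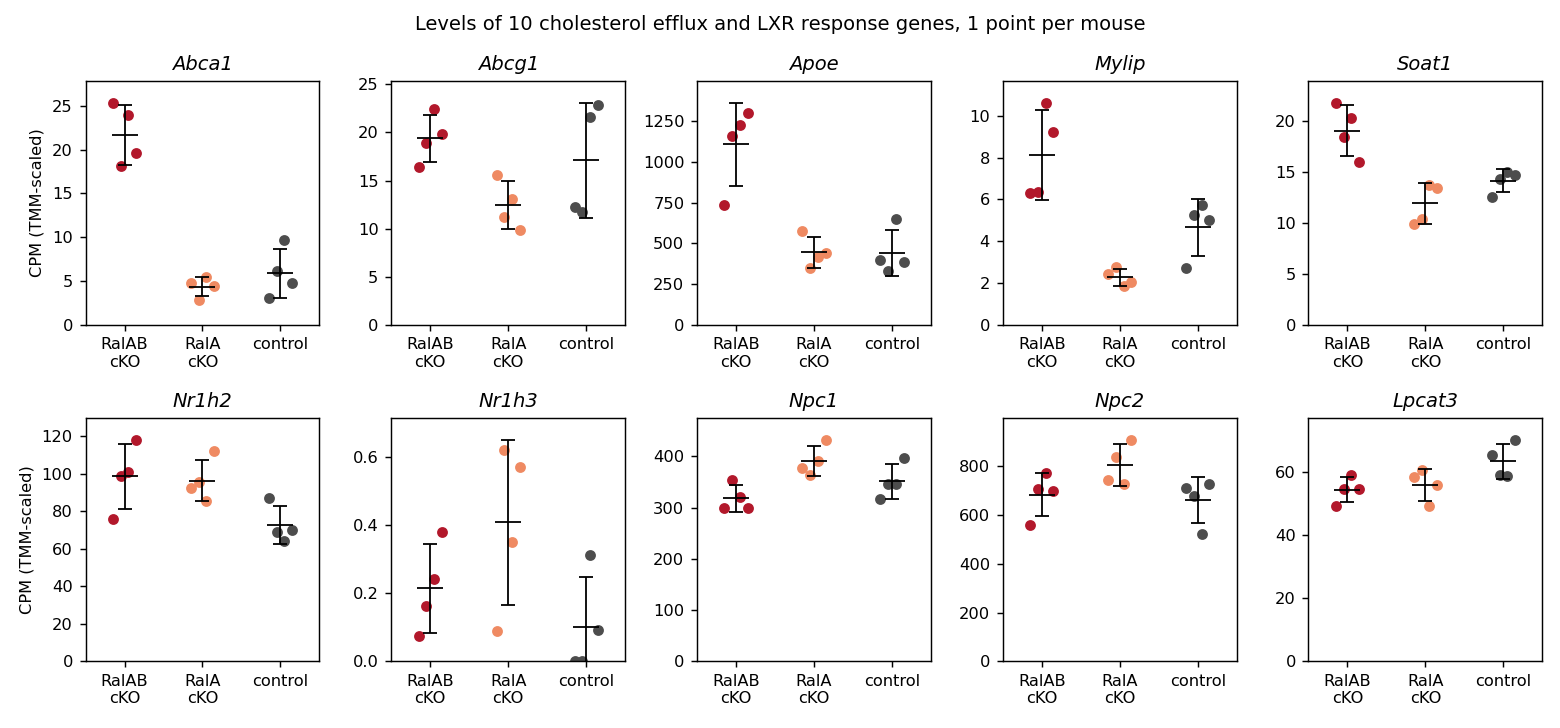
Level of each of the 10 genes in CPM (vertical axis) in RalAB cKO, RalA cKO and control mice (4 points per group, 1 per mouse), with the mean and SD as black bars. Abca1 and Apoe sit higher in all 4 RalAB cKO mice than in every other mouse, while Npc2, Lpcat3 and Nr1h3 overlap between the groups.

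Abca1 encodes the transporter that loads cholesterol and phospholipid onto lipid-poor apolipoproteins. It was at 25.3, 18.1, 23.9 and 19.6 CPM in the 4 RalAB cKO mice, 4.74, 2.83, 5.41 and 4.41 CPM in the RalA cKO mice, against 3.01, 6.11, 9.63 and 4.82 CPM in the control mice. The lowest RalAB cKO mouse lay above the highest mouse of both other groups, and RalA cKO and control mice overlapped. The difference was 1.88 ± 0.28 from control (adjusted p = 0.000346) and 2.32 ± 0.29 from RalA cKO (adjusted p = 6.16e-05, 4.99-fold). The estimated counts behind these levels were 222 to 341 per library in RalAB cKO, 32 to 62 in RalA cKO and 46 to 154 in control. RalA cKO against control gave -0.44 ± 0.29 (adjusted p = 0.373). Almost all Abca1 counts went to the full-length transcript Abca1-201 of 50 exons: 94% to 97.6% in RalAB cKO, 95.9% to 100% in RalA cKO and 99.3% to 100% in control mice.

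Apoe, the main apolipoprotein of the central nervous system and the acceptor of exported sterol, was the most abundant of the 10 genes. It stood at 738, 1162, 1229 and 1303 CPM in RalAB cKO mice, 573, 346, 417 and 443 CPM in RalA cKO mice, against 400, 328, 651 and 387 CPM in control mice. RalAB cKO mouse 1 was the lowest of its group, yet higher than every RalA cKO and control mouse. RalAB cKO differed by 1.33 ± 0.23 from control (adjusted p = 0.00117) and by 1.32 ± 0.23 from RalA cKO (adjusted p = 0.00118, 2.49-fold). RalA cKO against control gave 0.01 ± 0.22 (adjusted p = 0.981), with an interval of 2 standard errors from -0.43 to 0.46. The calls of Abca1 and Apoe in RalAB cKO against either group held in all 11 other settings and without any 1 of the 12 libraries.

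Abcg1 encodes the transporter that passes cholesterol to formed lipoprotein particles, downstream of Abca1. Its levels were 16.4, 18.9, 22.4 and 19.8 CPM in RalAB cKO, 15.6, 11.2, 13.1 and 9.89 CPM in RalA cKO, against 12.3, 11.7, 21.6 and 22.9 CPM in control mice. A pair of control mice lay below all RalAB cKO mice and the other pair near the highest of them, and RalAB cKO differed from control by 0.18 ± 0.22 (adjusted p = 0.62, interval of 2 standard errors -0.25 to 0.61). Every RalAB cKO mouse was above every RalA cKO mouse, but the difference of 0.64 ± 0.22 was not called (adjusted p = 0.0758). It passed with only the 2 groups compared (adjusted p = 0.026), with the DESeq2 test (adjusted p = 0.0454) and with a covariate for Y-linked expression (adjusted p = 0.0439).

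The oxysterol receptors were represented almost wholly by Nr1h2, which encodes LXR beta, the form made in most tissues. Nr1h2 was 76.1, 99, 101 and 118 CPM in RalAB cKO, 92.4, 95.7, 85.5 and 112 CPM in RalA cKO, against 87.2, 68.8, 64.2 and 70.1 CPM in control mice. Control mouse 1 lay above RalAB cKO mouse 1 and RalA cKO mouse 3, so in CPM control overlapped with both mutants. Nr1h2 was called higher in RalAB cKO than in control (0.44 ± 0.14, adjusted p = 0.033), and in RalA cKO it differed from control by 0.41 ± 0.14 without passing (adjusted p = 0.0986). Between RalAB cKO and RalA cKO the difference was 0.03 ± 0.14 (adjusted p = 0.929), with an interval of 2 standard errors from -0.24 to 0.30. The RalAB cKO call ended with mouse number as a block (adjusted p = 0.0529), with the Y-linked covariate (adjusted p = 0.0804) and when 1 of 6 libraries was left out: control 2 (0.415), control 3 (0.37), control 4 (0.429), RalAB cKO 2 (0.441), RalAB cKO 3 (0.43) or RalAB cKO 4 (0.343). In RalA cKO it passed without control 1 (0.511).

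Nr1h3 encodes LXR alpha, which in mice is best known from liver, fat and macrophages. It had 1, 2, 3 and 5 estimated counts in RalAB cKO, 1, 7, 4 and 8 in RalA cKO and 0, 0, 5 and 1 in control mice. These counts were too low for the filter, so Nr1h3 was not tested, and no difference was detectable at this depth.

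Mylip encodes the ubiquitin ligase, also called Idol, that marks lipoprotein receptors for degradation and so lowers cholesterol uptake. It was at 6.31, 6.37, 10.6 and 9.2 CPM in RalAB cKO, 2.41, 2.74, 1.83 and 2.06 CPM in RalA cKO, against 2.69, 5.24, 5.75 and 5 CPM in control mice. RalAB cKO mice were above all others, and RalA cKO mice were below 3 of the 4 control mice, with control mouse 1 inside the RalA cKO range. The difference between RalAB cKO and RalA cKO was 1.84 ± 0.28 (adjusted p = 0.000262, 3.59-fold), and that call held in every other setting and without any 1 library. Against control it was 0.80 ± 0.26 in RalAB cKO (adjusted p = 0.042) and -1.04 ± 0.28 in RalA cKO (adjusted p = 0.0552). The call in RalAB cKO ended with library totals alone (0.689), with only the 2 groups compared (adjusted p = 0.0577), with the Y-linked covariate (adjusted p = 0.0599) and with transcript length offsets (0.544, adjusted p = 0.205). It also ended without RalA cKO 2 (adjusted p = 0.0507), RalA cKO 4 (adjusted p = 0.051), control 1 (0.605), control 2 (0.867), control 4 (0.845), RalAB cKO 3 (0.645) or RalAB cKO 4 (0.737). The lower level in RalA cKO passed with library totals alone (-1.17), without a count filter (adjusted p = 0.0376), with transcript length offsets (-1.29), with the DESeq2 test (adjusted p = 0.0165), without control 1 (-1.24) and without RalAB cKO 1 (adjusted p = 0.0409).

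The 2 Mylip transcripts of the annotation stood in different proportions in the groups, a pattern singled out after the values were seen. Mylip-201 starts at chr13:45389742, and Mylip-202 has its own first exon at chr13:45390927-45391094, 1185 bases downstream. Both share 5 identical exons, and the last exon is 1602 bases in Mylip-201 and 625 bases in Mylip-202. Mylip-201 had 76.6, 78, 117 and 121 estimated counts in RalAB cKO, 26.9, 27.6, 17.7 and 28.2 in RalA cKO and 20.4, 47.9, 53.5 and 35.6 in control mice. Mylip-202 had 8.43, 0, 16 and 0 in RalAB cKO, 0, 3.26, 3.25 and 0.968 in RalA cKO and 20.6, 18.1, 38.5 and 19.4 in control mice. Its share of the gene's counts was 5.49% ± 6.4 in RalAB cKO, 7.35% ± 7 in RalA cKO and 38.7% ± 9.74 in control mice (SD, n = 4 each), and the lowest control share, 27.4%, was above the highest RalAB cKO share, 12%, and the highest RalA cKO share, 15.5%. The transcript test did not call Mylip-202 in RalAB cKO (-1.89 ± 1.31, adjusted p = 0.66) or in RalA cKO (-3.50 ± 1.42, adjusted p = 0.404). In CPM the range of Mylip-202 in control did not overlap with that in RalAB cKO or in RalA cKO, and that of Mylip-201 in RalAB cKO did not overlap with that in control or in RalA cKO. Among all tested transcripts this held for 10.4% in RalAB cKO against control, 8.98% in RalAB cKO against RalA cKO and 7.5% in RalA cKO against control. Mylip-201 was called between RalAB cKO and RalA cKO (1.86 ± 0.38, adjusted p = 0.0355) and not between RalAB cKO and control (1.36 ± 0.37, adjusted p = 0.104). Such splits are estimates from reads that mostly fit both transcripts, and are less certain than the gene sum.

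**Figure D2:**
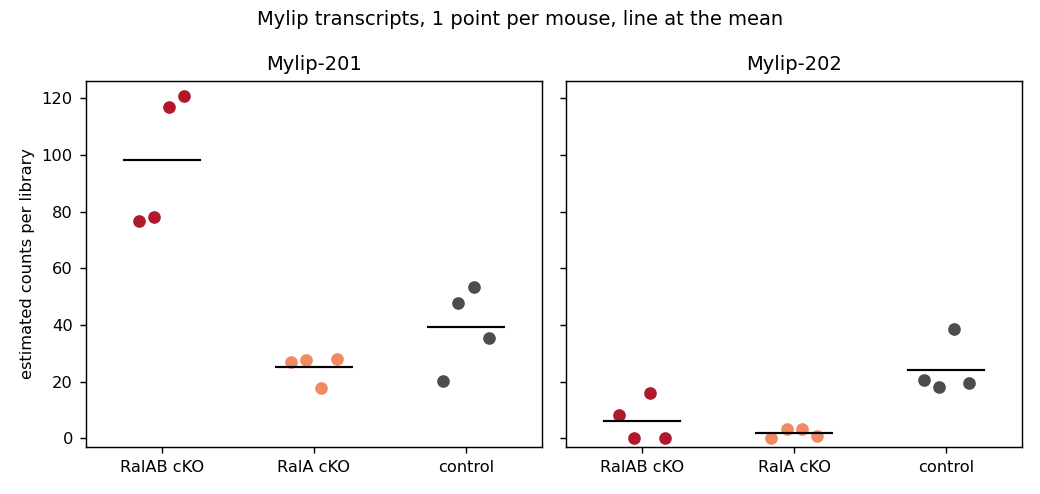
Estimated counts per library (vertical axis) of the transcripts Mylip-201 and Mylip-202 in RalAB cKO, RalA cKO and control mice, 1 point per mouse with a line at the group mean. Mylip-202 lies at 18.1 to 38.5 in control mice and at 16 or less in all mutant mice.

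Soat1 encodes the enzyme that esterifies cholesterol for storage in lipid droplets. It was at 21.7, 18.4, 20.2 and 15.9 CPM in RalAB cKO, 9.83, 10.4, 13.7 and 13.4 CPM in RalA cKO, against 12.5, 14.3, 15 and 14.7 CPM in control mice. All RalAB cKO mice lay above all others, whereas RalA cKO and control mice overlapped. Soat1 rose in RalAB cKO relative to RalA cKO (0.68 ± 0.15, adjusted p = 0.00649, 1.6-fold), a call that held in every other setting and without any 1 library. Relative to control the difference of 0.43 ± 0.15 missed the threshold (adjusted p = 0.0561). It passed with DESeq2 size factors (adjusted p = 0.0469), with limma-voom (adjusted p = 0.0483), with the DESeq2 test (adjusted p = 0.0251) and without RalAB cKO 4 (0.509).

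Lpcat3 encodes the acyltransferase that places polyunsaturated chains on membrane phospholipids, and it is an LXR target in mouse liver and intestine. Its levels were 49.4, 54.5, 59.2 and 54.5 CPM in RalAB cKO, 58.5, 60.7, 49.1 and 55.9 CPM in RalA cKO, against 65.5, 59.1, 58.9 and 70.2 CPM in control mice. In gene CPM the groups overlapped. Differences of -0.22 ± 0.10 in RalAB cKO (adjusted p = 0.143) and -0.18 ± 0.10 in RalA cKO (adjusted p = 0.303) against control were not called. The coding transcript with 90.4% to 99.4% of Lpcat3 counts lay below control in both mutants without overlap in CPM. It was not called in RalAB cKO (-0.31 ± 0.11, adjusted p = 0.217) or in RalA cKO (-0.27 ± 0.11, adjusted p = 0.396). A retained-intron transcript of 732 bases had 0 counts in control, 0 to 14.9 in RalAB cKO and 0 to 38.1 in RalA cKO. Another of 448 bases had 2.15e-05 or less, 0 to 24 and 0 to 23.5 in that order, and neither was called. The end of Lpcat3 overlaps Emg1 on the opposite strand, and the sources used here do not state the strand setting of the counting. With library totals alone the RalAB cKO gene value passed at -0.31, while with transcript length offsets it was 0.03.

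Npc1 and Npc2 encode the membrane protein and the soluble protein that hand cholesterol out of the lysosome, upstream of export and of LXR ligand formation. Npc1 was 299, 354, 320 and 300 CPM in RalAB cKO, 377, 364, 390 and 432 CPM in RalA cKO, against 317, 345, 345 and 397 CPM in control mice. Every RalAB cKO mouse was below every RalA cKO mouse, and control mice overlapped with both, and the difference between the mutants was -0.30 ± 0.10 (adjusted p = 0.0749). It passed with the DESeq2 test (adjusted p = 0.0279). Npc1 differed from control by -0.14 ± 0.10 in RalAB cKO (adjusted p = 0.37) and by 0.15 ± 0.10 in RalA cKO (adjusted p = 0.369). Npc1 overlaps Rmc1 and an antisense transcript in the annotation.

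Npc2 stood at 559, 705, 769 and 697 CPM in RalAB cKO, 743, 837, 726 and 906 CPM in RalA cKO, against 710, 677, 523 and 727 CPM in control mice. All 3 groups overlapped. The differences were 0.05 ± 0.13 for RalAB cKO against control (adjusted p = 0.833), -0.23 ± 0.13 for RalAB cKO against RalA cKO (adjusted p = 0.305) and 0.28 ± 0.13 for RalA cKO against control (adjusted p = 0.201).

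Between the mutants 4 of the 9 tested genes were called higher in RalAB cKO than in RalA cKO (Abca1, Mylip, Apoe and Soat1) and 0 lower, against 7.03% higher and 4.5% lower among all genes (11.5% in either direction). The median was 0.64, beside -0.03 over all genes. In CPM the mice of these groups did not overlap for 6 of the 9 genes, the 4 called ones with Abcg1 higher and Npc1 lower, against 17.3% of all genes. In TPM only the 4 called genes did not overlap.

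In RalA cKO against control edgeR called 0 of the 9 genes, against 2.78% of all genes (1.71% higher and 1.07% lower). In CPM, 0 of the 9 had ranges that did not overlap, against 11.4%. In TPM the ranges of Mylip and Soat1 did not overlap, with RalA cKO lower. At an unadjusted p under 0.05 there were 3, namely Mylip (lower), Nr1h2 and Npc2 (both higher). By p, Mylip ranked 428, Nr1h2 1135, Npc2 2811 and Abcg1, just past that limit, 3160 of the 13456 tested genes. Unadjusted p-values under 0.05 were thus common among all genes. The DESeq2 test called 1, Mylip, and limma-voom 0. The median was -0.18, beside -0.02 over all genes. The comparisons with control share the control mice, and the comparisons with RalAB cKO share the RalAB cKO mice, so they are not independent.

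**Figure D3:**
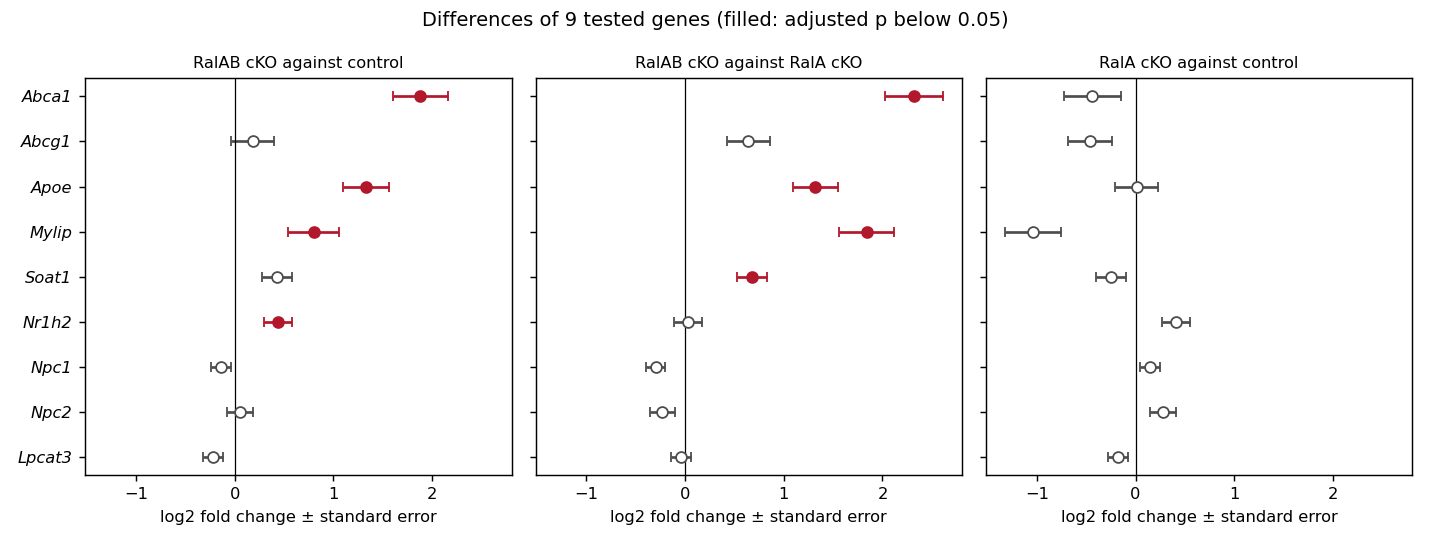
Log2 fold change ± standard error (horizontal axis) of the 9 tested genes in the 3 comparisons, n = 4 mice per group, with filled red points for an adjusted p under 0.05. Abca1 and Apoe lie furthest to the right in RalAB cKO against control, at 1.88 and 1.33, and no point is filled in RalA cKO against control.

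Compared per transcript length in TPM (mean ± SD, n = 4), Apoe led in every group, at 2321 ± 362 in RalAB cKO, 901 ± 191 in RalA cKO and 1001 ± 440 in control. Npc2 followed at 329 ± 16.8 TPM in RalAB cKO, 372 ± 21.6 in RalA cKO and 345 ± 34.6 in control. Npc1 was at 107 ± 11.4 TPM in RalAB cKO, 129 ± 11.5 in RalA cKO and 128 ± 16 in control. Below these lysosomal genes, Nr1h2 was at 104 ± 7.98 TPM in RalAB cKO, 95.3 ± 3.9 in RalA cKO and 79.7 ± 9.18 in control. Lpcat3 was at 47.8 ± 4.76 TPM in RalAB cKO, 47.6 ± 2.58 in RalA cKO and 51.1 ± 2.79 in control. These 5 stood in this order in all 3 groups, and of neighbours only Npc1 and Nr1h2 in RalAB cKO had overlapping ranges.

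The other 5 genes were lower in TPM, and their order differed between groups. Soat1 and Abcg1 were at 9.5 ± 1.99 and 9.46 ± 2.09 TPM in RalAB cKO, 5.13 ± 0.862 and 5.67 ± 1.51 TPM in RalA cKO and 8.35 ± 1.67 and 11.2 ± 4.67 TPM in control, and they overlapped each other in each group. Abca1 was at 5.03 ± 0.765 TPM in RalAB cKO, 0.849 ± 0.411 in RalA cKO and 1.02 ± 0.583 in control. Mylip was at 4.19 ± 0.926 TPM in RalAB cKO, 1.13 ± 0.174 in RalA cKO and 3.2 ± 1.04 in control.

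Abca1 overlapped Mylip in every group, and Nr1h3 in both RalA cKO and control. In RalA cKO Mylip was followed by Nr1h3 with overlap. Nr1h3 was at 0.231 ± 0.132 TPM in RalAB cKO, 1.04 ± 0.682 in RalA cKO and 0.575 ± 1.08 in control. In TPM, unlike CPM, the RalAB cKO and control ranges of Mylip (3.18 to 5.39 against 1.81 to 4.31) and of Soat1 (6.73 to 11.1 against 6.96 to 10.8) overlapped. Those of Abca1 (4.02 to 5.86 against 0.496 to 1.84) and Apoe (1778 to 2526 against 681 to 1649) did not. Nr1h2 overlapped in CPM but not in TPM (96.4 to 114 against 73.7 to 93.1). In RalA cKO, Mylip (0.952 to 1.36) and Soat1 (3.97 to 6.05) lay below control in TPM without overlap. Between RalAB cKO and RalA cKO, Abcg1 (6.48 to 11.4 against 3.76 to 7.34) and Npc1 (94.2 to 121 against 116 to 140) overlapped in TPM. The shares of all genes without overlap were counted in CPM only.

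At the level of transcripts, 29 of the 73 annotated for the 10 genes could be tested. In RalAB cKO against control 3 were called, all higher, against 1.68% of 31497 tested transcripts: Apoe-201 (1.26 ± 0.22, adjusted p = 0.0166), Abca1-201 (1.81 ± 0.34, adjusted p = 0.0219) and Apoe-206 (1.19 ± 0.24, adjusted p = 0.0314). In RalAB cKO against RalA cKO the same 3 and Mylip-201 were called, all higher, against 1.52%. In RalA cKO against control 0 were called by edgeR, against 0.117%. Both called Apoe transcripts moved by similar amounts, and Apoe-201 held 66.5% to 69.2% of Apoe counts in RalAB cKO, 67.6% to 71.2% in RalA cKO and 62.8% to 78.3% in control mice. The calls in RalAB cKO against control fell to 0 without control 2, control 4, RalAB cKO 2, RalAB cKO 3 or RalAB cKO 4, and those against RalA cKO fell to 1 or 2 without RalA cKO 2, 3 or 4 or RalAB cKO 2, 3 or 4.

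Markers of microglia, the resident phagocytes, moved with the same groups. All 20 microglia genes were detected in every group and none was at 0. Together they took 0.157%, 0.178%, 0.234% and 0.24% of counts in the RalAB cKO mice, 0.0384%, 0.0279%, 0.0456% and 0.0376% in the RalA cKO mice and 0.0416%, 0.0664%, 0.0851% and 0.0556% in the control mice. The RalAB cKO mice were above all others. The microglial receptor genes Csf1r and Cx3cr1 stood at 215 to 390 and 83.4 to 133 CPM in RalAB cKO, 30.3 to 62.8 and 12.2 to 20.7 CPM in RalA cKO, against 57.8 to 122 and 16.6 to 46.8 CPM in control.

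By the test 18 of the 20 microglia genes rose and 0 fell in RalAB cKO against control (median 1.87), 19 rose and 0 fell against RalA cKO (median 2.66), and 0 rose and 3 fell in RalA cKO against control (median -0.74). Of 17 tested genes of reactive microglia and macrophages, 16 rose against control and 16 against RalA cKO, with 0 lower, and 1 rose in RalA cKO against control. Their summed share was 0.292% to 0.431% in RalAB cKO, 0.18% to 0.208% in RalA cKO and 0.169% to 0.179% in control mice.

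Astrocytes are the other main source of Apoe in the central nervous system, and 11 of 17 astrocyte genes fell and 1 rose in RalAB cKO against control (median -0.74). The astrocyte share of counts was 0.117% to 0.145% in RalAB cKO, 0.15% to 0.196% in RalA cKO and 0.138% to 0.217% in control mice. Of genes of precursors of oligodendrocytes 7 of 10 fell, of oligodendrocyte and myelin genes 1 of 20 rose and 6 fell, of neuron genes 4 of 13 fell, and of pericyte and fibroblast genes 1 of 9 fell in the same comparison. Of 9 endothelial genes edgeR called 0 (the most abundant ones were Kdr at -0.52 and Cldn5 at -0.29), and of 7 Schwann cell genes 1 rose. The part of microglial or other cells in the levels of Abca1, Apoe, Mylip and Soat1 was not tested.

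**Figure D4:**
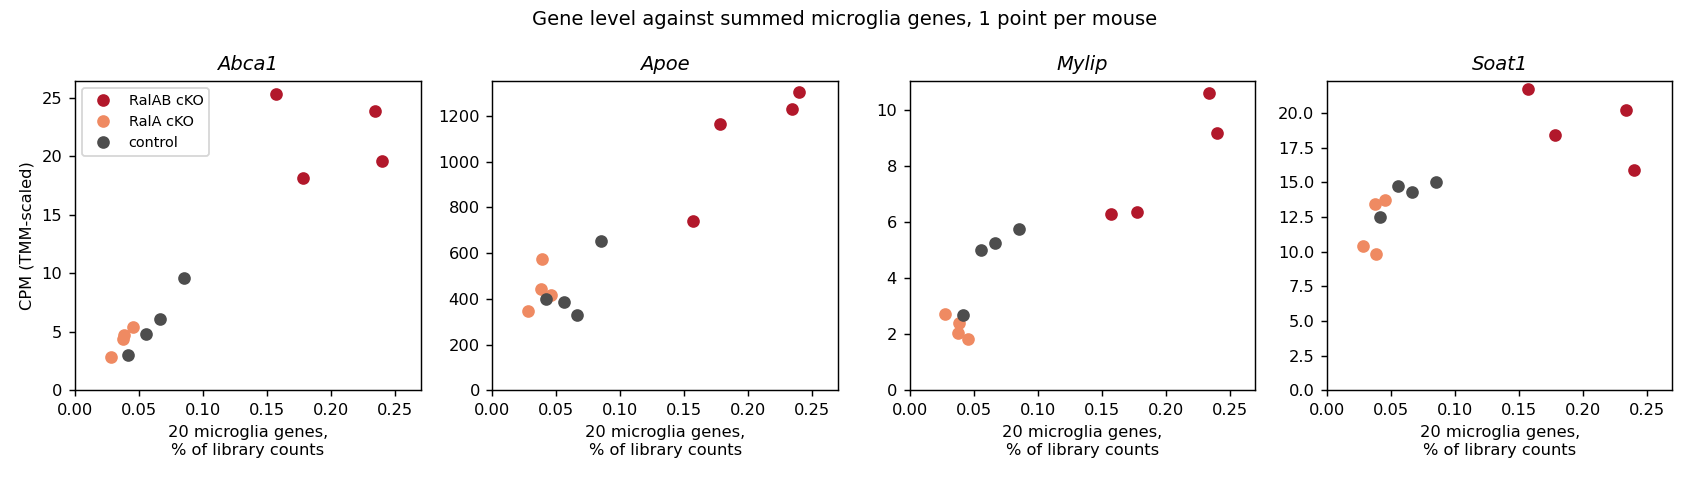
Level of Abca1, Apoe, Mylip and Soat1 in CPM (vertical axes) against the summed share of 20 microglia genes in percent of library counts (horizontal axes), 1 point per mouse, coloured by group. RalAB cKO mice lie to the right of all other mice (0.157% to 0.24%) and above them for all 4 genes.

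Within RalAB cKO the mouse with the lowest microglial share, mouse 1, had the highest Abca1 (25.3 CPM) and Soat1 (21.7 CPM) and the lowest Apoe (738 CPM) and Mylip (6.31 CPM). Over the 12 libraries, the genes with the pattern most like that of Abca1 among 9672 protein-coding genes included Mpeg1 and Cd34, each with a Pearson r of 0.973 in log2 CPM. Mpeg1, which encodes a pore-forming protein of macrophages, averaged 95.3 CPM in RalAB cKO, 10.2 in RalA cKO and 14.9 in control. Cd34, a surface sialomucin of progenitor and vessel cells, averaged 23.6 CPM in RalAB cKO, 5.22 in RalA cKO and 7.13 in control.

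Most like Apoe were Rtn1 (r = 0.981), Sipa1 (0.969) and Arhgef10l (0.968). Rtn1, an endoplasmic reticulum protein, averaged 433 CPM in RalAB cKO, 296 CPM in RalA cKO, against 294 CPM in control. Most like Abcg1 were the immediate early genes Fos (0.911) and Egr1 (0.872) and the cytokine feedback gene Socs3 (0.89). Fos averaged 78.9 CPM in RalAB cKO, 36.3 CPM in RalA cKO, against 60 CPM in control. These coefficients describe libraries that fall into 3 groups and share depth and scaling, and carry no test.

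Other genes of the pathway were counted beside the members. Of 22 other LXR target genes tested, 5 rose and 4 fell in RalAB cKO against control (median -0.06), 6 rose and 4 fell against RalA cKO (median 0.11), and edgeR called 0 in RalA cKO against control (median -0.17). Scd1 and Scd2, the desaturases that make monounsaturated fatty acids, fell by 1.99 ± 0.19 and 0.99 ± 0.12 on the log2 scale (adjusted p = 1.76e-05 and adjusted p = 6.2e-05). Acaca, acetyl-CoA carboxylase, averaged 140 CPM in RalAB cKO and 215 CPM in control (-0.62 ± 0.10, adjusted p = 0.000476). Fasn, fatty acid synthase, averaged 1800 CPM in RalAB cKO and 1924 CPM in control (-0.10 ± 0.14, adjusted p = 0.688).

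Apod, an apolipoprotein of glia, averaged 418 CPM in RalAB cKO, 1146 CPM in RalA cKO, against 1243 CPM in control (-1.57 ± 0.16 against control, adjusted p = 1.76e-05). Those that rose were Lpl, lipoprotein lipase, by 3.29 ± 0.39 (23.6 CPM in RalAB cKO and 2.4 CPM in control), the phagocytic receptor Mertk by 1.88 ± 0.31, the apolipoprotein Apoc1 by 1.84 ± 0.35, the cyclooxygenase Ptgs1 by 1.84 ± 0.34 and the small GTPase Arl4c by 0.84 ± 0.22. Lpl is also in the list of reactive microglia and macrophage genes counted above. Without RalAB cKO 4 the call of Arl4c ended (0.69, adjusted p = 0.0649). Mertk, Apoc1, Ptgs1, Arl4c, Acaca and Fasn were named after their values were seen. Srebf1, which LXRs are known to induce in mouse liver, averaged 103 CPM in RalAB cKO and 101 CPM in control (0.03 ± 0.13, adjusted p = 0.903). The further transporters Abca2, Abca3, Abca7 and Abcg4 were not called in that comparison, at 0.23, -0.13, 0.19 and -0.24, and were named after their values were seen.

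Of 16 partners and co-regulators of LXR, 1 rose and 0 fell in RalAB cKO against control (median 0.02), 2 rose against RalA cKO, and 1 rose and 1 fell in RalA cKO against control. In RalA cKO the partner receptor Rxrb was at 0.51 ± 0.13 against control (adjusted p = 0.0492), a call that ended without any 1 of 8 libraries (all but RalA cKO 1, RalA cKO 3, control 1 and RalAB cKO 1; 0.44 to 0.60 over the 12) and in 7 of 11 other settings (adjusted p up to 0.088). The co-activator Ncoa6 was at -0.53 ± 0.12 in RalA cKO (adjusted p = 0.0293), a call that ended without any 1 of 6 libraries (RalA cKO 1, 2 or 4, control 2, 3 or 4; -0.64 to -0.46 over the 12) and in 3 of 11 other settings (adjusted p up to 0.308).

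Of 9 enzymes that make or remove sterol ligands, 1 rose and 3 fell in RalAB cKO against control (median -0.55). This list is not separate from the others: 4 of its 14 genes, tested or not, are also in other lists. Sc5d is counted again among the cholesterol synthesis genes below. Sc5d, the desaturase of a late step of cholesterol synthesis, fell by 1.25 ± 0.14, and Dhcr7, the last reductase of one branch, fell by 0.58. Cyp27a1, the mitochondrial enzyme that makes an oxysterol ligand, fell by 0.55 (adjusted p = 0.0088). Cyp46a1, the sterol hydroxylase best known from neurons, rose by 0.64 ± 0.13 (adjusted p = 0.00243).

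Of 26 genes of cholesterol synthesis and its SREBP2 control, 1 rose and 18 fell in RalAB cKO against control (median -0.72), 1 rose and 15 fell against RalA cKO (median -0.47), and 0 rose and 7 fell in RalA cKO against control (median -0.13). Lss, which closes the sterol rings, fell by 1.38 ± 0.12 in RalAB cKO against control (adjusted p = 1.07e-05). The summed share of these genes was 0.782% to 0.896% in RalAB cKO, 1.03% to 1.27% in RalA cKO and 1.35% to 1.57% in control mice, without overlap between any 2 groups.

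**Figure D5:**
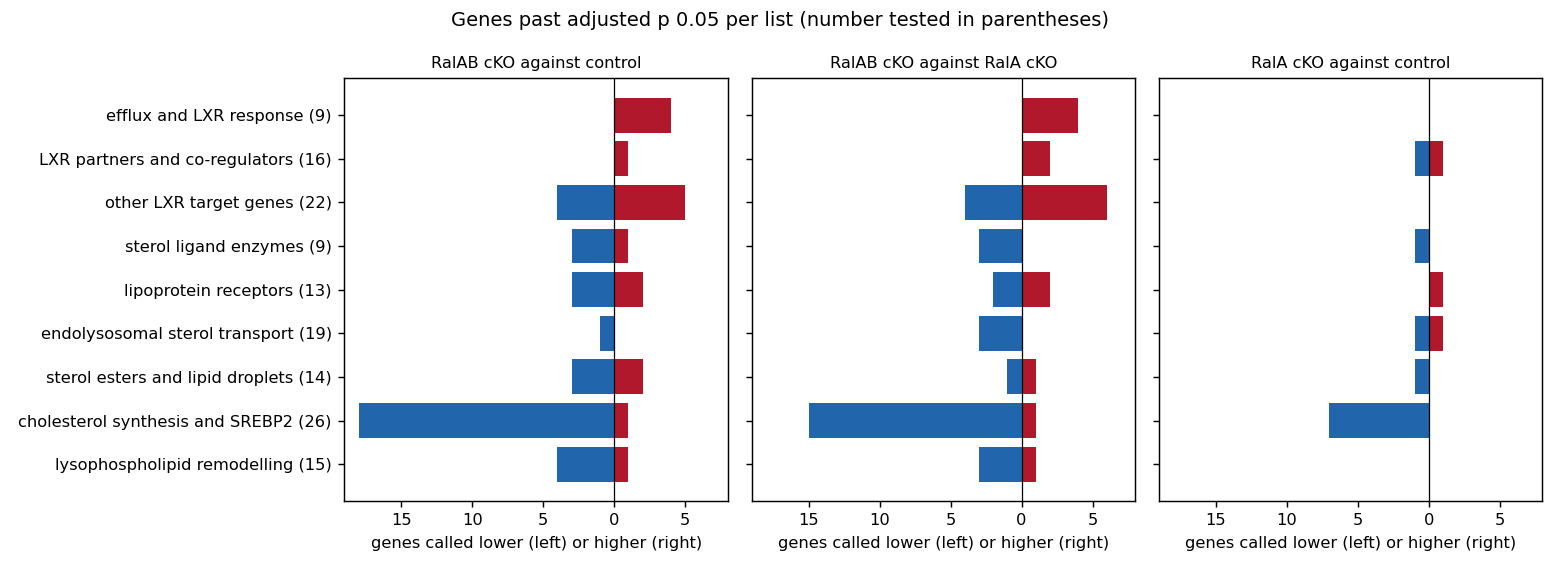
Number of genes called lower (blue, to the left) and higher (red, to the right) at an adjusted p under 0.05 in each list, with the number tested in parentheses, in the 3 comparisons. The 4 calls of the efflux and LXR response genes are all to the right in both comparisons of RalAB cKO, and 18 of the 26 cholesterol synthesis genes are to the left in RalAB cKO against control.

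Uptake receptors went both ways. Of 13 tested lipoprotein receptors, the proteins that Mylip acts on among them, 2 rose and 3 fell in RalAB cKO against control (median -0.20). Scarb1, the receptor of high-density lipoprotein, fell by 0.83 ± 0.14 (adjusted p = 0.00064). Stab1, a scavenger receptor of macrophages and vessel cells, rose by 1.91 ± 0.23, and the sorting receptor Sort1 rose by 0.78 ± 0.15 (adjusted p = 0.00209).

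Of 19 genes of endolysosomal sterol transport, the group around Npc1 and Npc2, 0 rose and 1 fell in RalAB cKO against control (median 0.03), 3 fell against RalA cKO, and 1 rose and 1 fell in RalA cKO against control. The gene that fell in RalAB cKO was Tmem97, a regulator of Npc1, at -0.73 ± 0.12 (adjusted p = 0.000837). Stard3, a sterol tether of late endosomes, rose by 0.63 ± 0.14 in RalA cKO (adjusted p = 0.0267), a call that ended without RalA cKO 2, RalA cKO 4, control 2 or control 3 (0.53 to 0.72 over the 12 libraries left out).

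Of 14 genes of sterol esters and lipid droplets, the group around Soat1, 2 rose and 3 fell in RalAB cKO against control (median -0.05). The droplet coat gene Plin2 rose by 1.90 ± 0.22 (adjusted p = 4.38e-05) and the related Plin3 fell by 1.48 ± 0.15. Of 15 genes of lysophospholipid remodelling, the group around Lpcat3, 1 rose and 4 fell (median -0.03). Lpcat1 rose by 0.67 ± 0.12 (adjusted p = 0.00134), while the acyltransferase Mboat1 fell by 1.87 ± 0.26 and the phospholipase Pla2g4a fell by 1.62 ± 0.18.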

How the data were processed

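The deposited files gave, for each transcript of each library, an estimated count, an effective length and a TPM value made by the authors; per the submitters' processing notes Trimmomatic 0.36, kallisto 0.44 and GRCm38.p6 were used. Per the labels, each library came from 1 mouse, so the 4 mice of a group were separate replicates. Estimated counts were the values tested. The deposited TPM values were summed per gene for levels between genes, and effective lengths entered 1 alternative.

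Identifiers of 121104 of the 121843 transcripts matched GENCODE vM21, and these were summed over genes and rounded. Genes were kept with edgeR's filter (minimum count 10, total 15), scaled by TMM and fitted over all 12 libraries with robust quasi-likelihood F tests (edgeR 4.0.16, R 4.3.3) and Benjamini-Hochberg adjustment at 0.05. Standard errors were derived from each fold change and its F value. Transcripts were tested alike. Between libraries of a group chi-square per degree of freedom was 9.09 to 39.5, so none were duplicates. Counts of 0 to a few limit Nr1h3 and Mylip-202 most. On simulated counts for RalAB cKO against control (13304 genes), 92% of 2-fold and 15% of 1.5-fold changes were recovered, with 3.6% false calls. The simulation gave all genes 1 common spread (biological coefficient of variation 0.199). Changes were planted only in genes averaging at least 5 CPM. These rates need not hold for genes of another spread or a lower level.

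The members and the 17 other gene lists were chosen with earlier results of these data known, and some lists share genes. From each list up to 4 called genes with the smallest p in RalAB cKO against control and up to 2 in each other comparison were named, or the 2 most abundant where none was called, and for 3 members the 3 protein-coding genes (mean of at least 5 CPM) with the highest correlation in log2 CPM (prior count 2). Some genes that this rule names are not reported here. Alternatives were DESeq2 size factors, library totals alone, no filter, at least 1 CPM in 4 libraries, DESeq2 1.42.0, limma-voom (limma 3.58.1), a fit of only the 2 groups, a block for mouse number, offsets for transcript length, protein-coding nuclear genes alone, a covariate for Y-linked expression, and leaving out each library in turn.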

Additional observations from a re-analysis of the deposited data

How the results depend on the processing

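The calls of Abca1 and Apoe in RalAB cKO against control and against RalA cKO, and of Mylip and Soat1 against RalA cKO, held in all 11 settings and without any 1 library. Abca1 against control ranged from 1.77 to 2.46 over the settings and Apoe from 1.21 to 1.46. In RalA cKO against control the members called numbered 0, and 1 (Mylip, lower) with library totals alone, without a count filter, with transcript length offsets and with the DESeq2 test. With 1 library left out they numbered 0 to 2. In RalAB cKO against control they numbered 4, 5 with DESeq2 size factors, limma-voom or the DESeq2 test, 3 with only the 2 groups, the block or length offsets, 4 (3 higher, 1 lower) with library totals, 2 with the Y-linked covariate and 2 to 4 with 1 library left out (2 without control 2, control 4 or RalAB cKO 3). Against RalA cKO they numbered 4, 5 with only the 2 groups or the covariate and 6 (5 higher, 1 lower) with the DESeq2 test. Among all genes, RalA cKO against control gave 374 calls, 1079 with the DESeq2 test and 85 (without RalA cKO 4) to 947 (without control 1) with 1 library left out, and RalAB cKO against control gave 2478 and 1605 (without RalAB cKO 4) to 3209. Transcripts called numbered 0 to 4 with 1 library left out in RalAB cKO against control and 1 to 4 against RalA cKO.

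With library totals alone the median of all genes was -0.138 in RalA cKO against control, and the share of calls that were higher was 41.3% in place of 61.5% there and 41.4% in place of 51% in RalAB cKO against control.

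Some uncalled values changed sign in some settings. These were Lpcat3 with transcript length offsets (0.092 in RalA cKO and 0.029 in RalAB cKO against control, from -0.18 and -0.22 in the main fit). Abcg1 in RalAB cKO against control was -0.106 with offsets, from 0.18 in the main fit. Apoe in RalA cKO was -0.114 with library totals, -0.075 with the Y-linked covariate and -0.13 to 0.25 with 1 library left out (-0.134, -0.034, -0.093 and -0.028 without RalA cKO 1, control 1, control 2 and control 4). Npc2 in RalAB cKO against control was -0.04 with library totals, -0.031 with the covariate and -0.06 to 0.13 with 1 library left out (-0.063 without control 3, -0.012 without RalAB cKO 3). Nr1h2 in RalAB cKO against RalA cKO was -0.063 with the covariate, -0.023 without RalA cKO 3 and -0.067 without RalAB cKO 4. Cldn5 in RalAB cKO against control ranged from -0.446 to 0.065 with 1 library left out (0.065 without control 3). The cause of these shifts was not tested.

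The labels do not say that mouse numbers mark a shared litter or day. Deviations of same-numbered mice correlated at 0.06 to 0.18 between RalA cKO and control and -0.18 to -0.08 between RalAB cKO and control. Between the mutants they correlated at -0.2 to 0.12. Mice of different numbers were not compared, so these values cannot show whether the numbers pair the samples. With mouse number as a block 232 genes were called in RalA cKO against control, 2146 in RalAB cKO against control and 1343 in RalAB cKO against RalA cKO, and 0 and 1 transcripts of the members in the comparisons of RalAB cKO with control and with RalA cKO. At 10.93 to 15.44 M counts Nr1h3 was too low to test.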
